A study of Mus musculus with 28 samples.

Results

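Choroid plexus genes are described here along the 3 body axes of the mouse brain at 3 weeks after birth. The 9 genes are Ttr, Folr1, Kl, Kcnj13, Clic6, Aqp1, Slc4a5, Otx2 and Sostdc1, out of 20660 gene symbols that the array names. They were chosen as known genes of this tissue and not by a value measured here, though earlier results of these data were known. Their symbols were found through the RefSeq accession of each probe, which gave 13 probes, and the probe with the highest mean level stands for a gene that has several. All 9 genes were among the 15560 symbols with a tested probe. Their levels were measured by Transcriptome Tomography, a method in which a frozen brain is cut along 1 axis and runs of neighbouring sections are pooled into fractions for RNA measurement. The brains came from male C57BL/6J mice at 3 weeks of age, with no allele or treatment named, 1 mouse for each plane of cutting. There are 12 coronal, 6 horizontal and 10 sagittal fractions, and each of the 28 fractions was put on 1 single-colour array. Mouse and plane are therefore the same thing, no position has a replicate, and the whole brain was cut, so that every fraction mixes many cell types. Per its label, coronal fraction 12 also holds the slab that follows it, and distances are not given because the sources differ on the width of a fraction.

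The choroid plexus is a folded sheet of epithelium around leaky capillaries that makes the cerebrospinal fluid. It hangs in the paired lateral ventricles of the forebrain, in the third ventricle on the midline between the thalami, and in the fourth ventricle beneath the cerebellum. Its epithelial cells carry ions, water, folate and hormones between blood and fluid, and are joined by tight junctions that close the way between cells. The lining of the rest of the ventricles, the ependyma, has a common origin with it and shares some of its genes. In bulk fractions such as these, fewer cells of a type and less RNA per cell cannot be told apart.

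A level is log2 of the processed signal of a probe minus the 75th percentile of its array, so that 0 is the 75th percentile and 1 unit is a doubling. The 75th percentile lay between 135 and 574 signal units, lowest in sagittal fraction 1, and 24822 to 34240 of 55681 probes were well above background. Probes spotted many times on 1 array had a median SD of 0.056 to 0.085 log2. Fractions 3 to 10 of the coronal series were on 1 slide, and so were all 6 horizontal ones together with coronal fractions 1 and 2. Sagittal fractions 1 to 4 had a slide of their own, and 5 to 10 shared theirs with coronal fractions 11 and 12. Levels of different genes come from different probes and are not compared in height. Rise and fall here describe the profile of 1 brain from array to array, and are no result of a test unless one is given.

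Promoter sequence was looked at because 8 of the 9 genes dip and rise again along the coronal series. The other is Otx2, a homeodomain transcription factor required for the choroid plexus to form. Windows from 250 bases before to 50 bases after a start were found in the RefSeq table of build GRCm38.p6 for 5 of the 9 genes, with 8 windows in all since Otx2 has several starts. The letters TAATCC, the core bound by factors of the Otx family, or GGATTA on the other strand, were searched for, and these strings can overlap in the letters TA. They occurred in 1 of the 8 windows, at 1 start of Otx2, and in 2320 of all 32851 windows (7.06%). The Kl window held 19 CG dinucleotides with 67.3% G and C, against medians of 7 and 52.7% over all windows. The windows of Kcnj13, Slc4a5 and Aqp1 held 5, 6 and 8. Those of the Otx2 starts held 6 to 16, with 16 at the start with the match. Shown 5′ to 3′ on the strand of the gene are the 250 bases before the start for Kl, Kcnj13 and Slc4a5, whose profiles share the caudal and rostral peaks described next, and for the Otx2 start with the match, which stands in capitals and begins 211 bases before the start. A match describes letters only, and its absence says only that these letters are not in the window.
Kl, chr5:150952357-150952606, + strand: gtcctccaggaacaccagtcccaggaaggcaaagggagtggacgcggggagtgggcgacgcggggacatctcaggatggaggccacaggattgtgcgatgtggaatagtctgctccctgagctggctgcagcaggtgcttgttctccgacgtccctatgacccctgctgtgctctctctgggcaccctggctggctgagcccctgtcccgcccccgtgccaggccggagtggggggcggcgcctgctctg
Kcnj13, chr1:87394730-87394979, - strand: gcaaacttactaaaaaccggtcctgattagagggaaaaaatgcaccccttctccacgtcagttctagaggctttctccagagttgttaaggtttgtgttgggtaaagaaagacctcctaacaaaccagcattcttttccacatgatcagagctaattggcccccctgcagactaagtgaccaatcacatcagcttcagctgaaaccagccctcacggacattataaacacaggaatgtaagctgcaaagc
Slc4a5, chr6:83237125-83237374, + strand: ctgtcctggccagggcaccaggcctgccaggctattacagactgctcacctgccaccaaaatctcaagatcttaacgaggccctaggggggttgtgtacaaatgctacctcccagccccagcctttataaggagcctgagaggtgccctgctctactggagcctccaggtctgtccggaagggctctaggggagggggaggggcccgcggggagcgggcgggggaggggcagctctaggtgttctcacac
Otx2, chr14:48665110-48665359, - strand: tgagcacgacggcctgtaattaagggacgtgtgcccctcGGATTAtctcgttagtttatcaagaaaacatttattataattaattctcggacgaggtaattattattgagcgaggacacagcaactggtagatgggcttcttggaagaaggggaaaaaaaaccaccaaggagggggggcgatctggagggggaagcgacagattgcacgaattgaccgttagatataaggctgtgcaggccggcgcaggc

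The coronal series asked where along the length of the brain these genes are expressed, and whether the forebrain and hindbrain ventricles appear as separate places. All 9 genes had their highest level of fractions 1 to 5 in fraction 3. In 8 of the 9, all but Otx2, the level then fell towards fractions 4 and 5 and rose again in fractions 6 and 7. Fraction 3 was also where the list of cerebellum genes was highest (4.41 log2 above its series mean, with 4.37 in fraction 2), while those of hippocampus and thalamus peaked in fraction 6 (1.88 and 2.29) and that of the hypothalamus in fraction 7 (4.70). The hindbrain list was highest in fraction 1 (4.81), which sets fraction 1 at the caudal end, with the striatum list in fraction 8 (3.34) on the other side. Of fractions 3 to 7, fraction 5 was the lowest for 7 of the 9 choroid plexus genes, though for Otx2 by only 0.01 log2. The mean of the midbrain list was highest there (2.43, SD over its 3 genes 2.08) and nearly as high in fraction 12 (2.06). Its genes did not share a maximum, with Slc6a3 highest in fraction 5, Slc18a2 in fraction 4 and Th in fraction 12. Averaged over the 9 genes, each centred on its series mean, the level was 2.46 log2 in fraction 3 (SD over genes 0.57), -1.12 in fraction 5 (1.15), 1.48 in fraction 6 (0.65) and 1.67 in fraction 7 (0.72). Brightness was similar on these arrays, with a 75th percentile of 535 in fraction 3, 495 in 5 and 456 in 7. The blood list was also highest in fraction 3 (1.36) but low in fraction 7 (-0.62), and the endothelium list kept between -0.24 and 0.33 over the series.

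**Figure D1:**
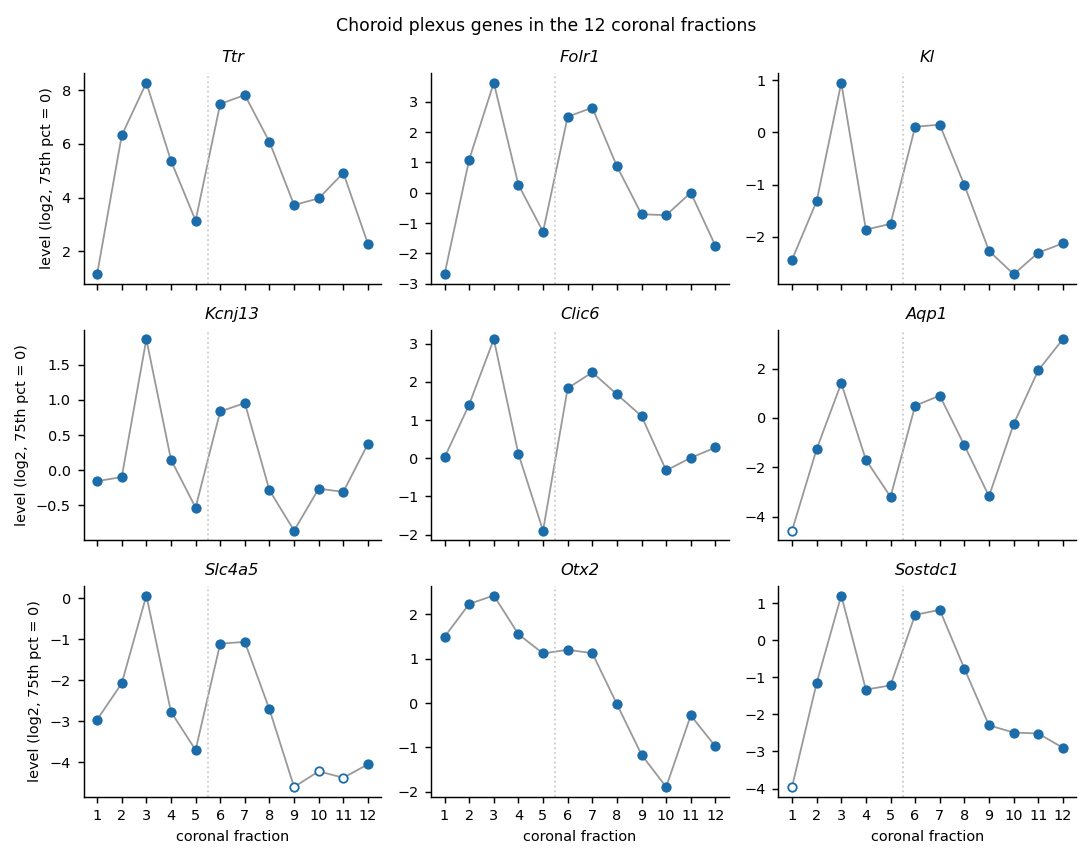
Levels of the 9 choroid plexus genes in coronal fractions 1 (caudal) to 12 (rostral), as log2 relative to the 75th percentile of the array, 1 array a point, with open points where the probe was not well above background and a dotted line between the caudal and the rostral window. Each gene has a caudal maximum in fraction 3, and 8 of 9 have a second rise in fractions 6 and 7, while Otx2 has none there. In fraction 12 Aqp1 reaches 3.20 and Kcnj13 0.38.

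Among the secreted proteins and receptors, Ttr and Folr1 had the deepest dips. Ttr, the thyroid hormone carrier that the choroid plexus secretes into the fluid, ranged over the coronal series from 1.14 in fraction 1 to 8.27 in fraction 3, with a median of 5.14. Its level was 6.31 in fraction 2, 5.37 in fraction 4 and 3.14 in fraction 5, so that fraction 3 was 35.0-fold above fraction 5. It then reached 7.49 in fraction 6 and 7.82 in fraction 7, a height 25.6-fold above fraction 5, before it fell by 1.75 to fraction 8. A further small maximum of 4.92 stood in fraction 11, between 3.97 and 2.27 in its neighbours.

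Folr1, the folate receptor through which folate enters the cerebrospinal fluid, ranged from -2.69 in fraction 1 to 3.62 in fraction 3, with a median of 0.13. Its level of -1.29 in fraction 5 was followed by 2.50 in fraction 6 and 2.80 in fraction 7. Both maxima were therefore well separated, 30.0-fold and 17.0-fold above the low point. Kl, which encodes Klotho, a membrane protein that is also shed into the fluid, ranged from -2.72 in fraction 10 to 0.95 in fraction 3 (median -1.81), with -1.86 in fraction 4 and 0.15 in fraction 7. Sostdc1, a secreted antagonist of BMP and Wnt signals, had 1.21 in fraction 3, -1.33 in fraction 4, -1.22 in fraction 5 and 0.82 in fraction 7, and was not well above background in fraction 1. In Kl and Sostdc1 the low point between the maxima was in fraction 4, close to the level of fraction 5.

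Channels and transporters followed the same course with different depths. Clic6, a member of the chloride intracellular channel family, fell from 3.12 in fraction 3 to -1.90 in fraction 5, its lowest coronal level, and stood at 2.25 in fraction 7 (series median 0.69). It decayed more slowly towards the front than the other genes, by 0.58 log2 from fraction 7 to 8 against a median fall of 1.58 over the 9. Slc4a5, a sodium bicarbonate cotransporter that takes part in fluid secretion, had 0.07 in fraction 3, -3.70 in fraction 5 and -1.07 in fraction 7. It was not well above background in fractions 9 to 11. Kcnj13, the inward rectifier potassium channel of the apical membrane, had the flattest course, from -0.86 in fraction 9 to 1.86 in fraction 3 with a median of -0.13. Its level was -0.53 in fraction 5 and 0.95 in fraction 7, and after fraction 9 it rose again to 0.38 in fraction 12, a peak by the count given further on. Its probe was well above background on all 28 arrays.

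Aqp1 and Otx2 departed from the others at opposite ends. Aqp1, the water channel of the apical membrane, had 1.41 in fraction 3, -3.20 in fraction 5, 0.91 in fraction 7 and -3.18 in fraction 9. From there it rose to -0.25 in fraction 10, 1.93 in fraction 11 and 3.20 in fraction 12, its highest level on any array. Fraction 10 shares its slide with fraction 9, so the first step of 2.93 log2 was measured within 1 slide. None of the other 8 genes was highest in the rostral fractions. The list of meningeal fibroblast genes was highest in fraction 12 as well (1.12), and the blood list stood at 0.88, 0.99 and 0.85 in fractions 10 to 12, against -0.99 in fraction 9. The retinal pigment epithelium shares Ttr, Kcnj13 and Otx2 with the choroid plexus. Its list was highest in fraction 12 (1.81), carried by Rlbp1 (1.83) and Tyrp1 (-0.51). Its defining gene Rpe65 was at -4.89 there, below the lowest signal well above background on that array (-4.58). Red blood cells and several other cell types carry Aqp1, and the part of these lists in its rise was not tested.

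Otx2 was high throughout the caudal fractions, with 1.50, 2.24, 2.43, 1.55 and 1.12 in fractions 1 to 5. It stayed level through fractions 6 and 7 (1.20 and 1.13), then fell to -1.89 in fraction 10. A difference of 0.01 log2 parts fraction 7 from fraction 5, which is within the spread of repeated spots. Its later maximum was -0.28 in fraction 11, and 70.6% of its summed linear coronal signal lay in fractions 1 to 5, against a median share of 47.1% over the 9 genes. Otx2 is also known from the midbrain and from parts of the cerebellum, and their lists were high in fractions 5 and 3. The part of those cells in its profile was not tested.

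A maximum was counted as a peak when it stood at least 1 log2 above the dip that parts it from a higher fraction. By this count 9 of 9 genes had a peak both in fractions 1 to 5 and in fractions 6 to 12, a shape met by 23.2% of all 32364 tested probes. For Otx2 the rostral peak was the one in fraction 11, a rise from -1.89 in fraction 10 to -0.28. Fractions 10 and 11 were on different slides, so this rise cannot be told apart from a slide difference. A stricter shape, chosen after the profiles were seen, asks that fraction 3 is the highest of 1 to 5 and that both it and the higher of fractions 6 and 7 stand at least 1 log2 above the lower of 4 and 5. It was met by 8 of 9 genes, by 3 of 5 ependyma genes and by 1.29% of tested probes, and no test was made of it.

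**Figure D2:**
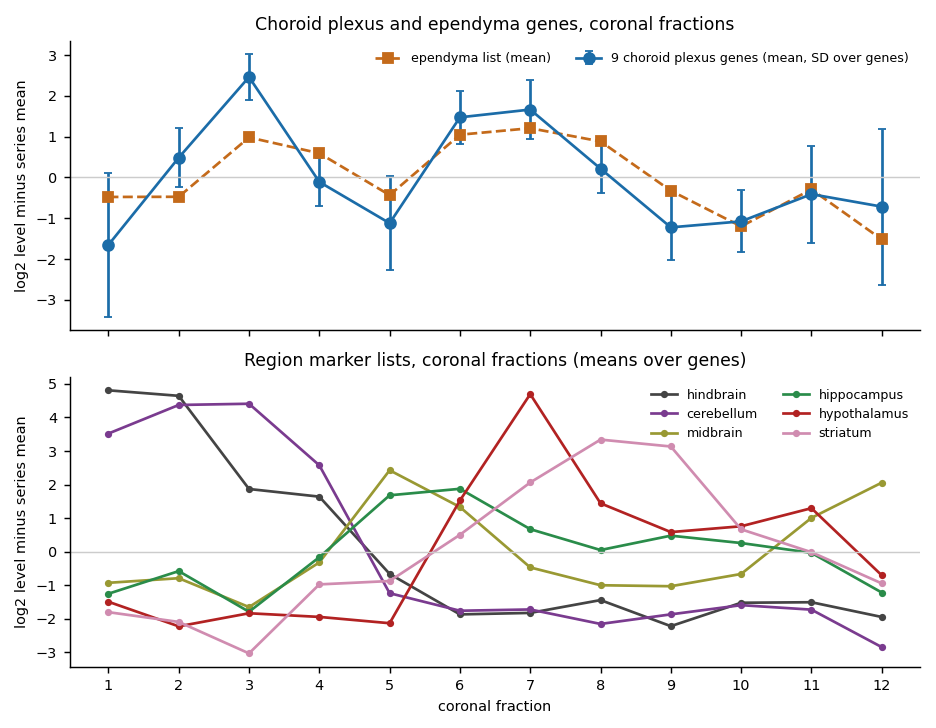
Mean log2 level relative to the series mean in coronal fractions 1 to 12 for the 9 choroid plexus genes (bars are the SD over genes) and the ependyma list above, and for lists of region markers below. The choroid plexus mean is highest in fraction 3, rises again in fractions 6 and 7, where hippocampus and hypothalamus lists are highest, and dips in fraction 5, where the mean of the midbrain list is highest.

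All 9 genes were higher in fraction 3 than in fraction 7, by 0.39 (Sostdc1) to 1.30 log2 (Otx2) with a median of 0.82, while 49.3% of all tested probes were higher in fraction 3. The difference was 0.45 for Ttr, 0.50 for Aqp1, 0.80 for Kl, 0.82 for Folr1, 0.87 for Clic6, 0.91 for Kcnj13 and 1.13 for Slc4a5. Each exceeds the 0.085 log2 SD of repeated spots, but with 1 mouse and 1 array a position no replicate error can be set against it. Towards the front it did not hold for Aqp1, which was 1.79 log2 higher in fraction 12 than in fraction 3. The ependyma list went the other way, with 4 of 5 genes higher in fraction 7 and a median difference of -0.16. For Rarres2 among them the difference (2.22 in fraction 3, 2.25 in fraction 7) is within the spread of repeated spots. How much tissue of each ventricle a fraction holds was not measured.

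A spline of the fraction number was fitted by limma to ask which genes vary along the axis beyond the scatter around a smooth curve. With 3 degrees of freedom, 1 of 9 genes passed a Benjamini-Hochberg adjusted p of 0.05 (Otx2, 0.00242), against 33.7% of all tested probes. The adjusted p of the other 8 lay between 0.0587 (Sostdc1) and 0.795 (Clic6). With 6 degrees of freedom, tried after the profiles were seen because a curve with few bends follows 2 peaks poorly, 8 of 9 genes passed, all but Kcnj13, and 36.7% of all probes. The count depends on the curve, and without fraction 5 it was 4 with 3 degrees of freedom, against 28.6% of all probes. With the slide as an added term only Otx2 passed, and 0.745% of all probes.

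The horizontal series asked at which height of the brain the genes lie. All 9 rose from fraction 2 to 3 and fell from fraction 5 to 6. Ttr had 1.94, 3.28, 7.40, 7.22, 7.55 and 4.96 in fractions 1 to 6. Folr1 had -0.66, -0.76, 2.51, 2.39, 2.56 and 0.64, and the step between fractions 2 and 3 was 4.12 log2 for Ttr and 3.27 for Folr1. Over the 9 genes this step had a median of 2.61 (0.62 for Otx2 the smallest), and 8 of 9 rose by over 1 log2, against 2.73% of all tested probes. The fall from fraction 5 to 6 was 1.92 at the median, between 1.08 (Kcnj13) and 2.59 (Ttr). Fractions 3, 4 and 5 thus formed a plateau.

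Within the plateau the order differed among genes. Fraction 5 was the highest for 7 genes, among them Kl (0.37, against -0.23 in fraction 3), Clic6 (2.16 against 1.57), Kcnj13 (1.18 against 0.69), Slc4a5 (-1.01 against -1.48) and Sostdc1 (0.49 against 0.17). Aqp1 was highest in fraction 3 (0.65) and Otx2 in fraction 4 (1.94). From fraction 3 to 5 the levels moved by -0.43 (Aqp1) to 0.60 (Kl), which for Kl is close to the 0.62 by which Otx2 rose from fraction 2 to 3. Fraction 6, where the hypothalamus list was highest (4.90), held less of all 9 genes than fraction 5. The mean of the pineal list was highest in fraction 1 (2.45, SD 3.00 over its 2 tested genes). Tph1, an enzyme of serotonin synthesis, carried it, with 1.17 in fraction 1 and -1.60 in fraction 2, while Aanat had 0.53 and 0.17 and was nearly as high in fraction 6 (0.49).

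By limma with 2 degrees of freedom 4 of 9 genes had a horizontal trend, Ttr (adjusted p 0.0312), Clic6 (0.0243), Aqp1 (0.0282) and Otx2 (0.0234), against 15.8% of all probes. Without fraction 1, 3 or 4 the count was 0, and without fraction 6 it was 1. Of all probes 6.84% passed without fraction 1, 0% without fraction 3 or 4, and 4.13% without fraction 6. With 1 degree of freedom fewer the count was 0 and with 1 more it was 1, against 0.00309% and 4.95% of all probes. When levels were scaled to the array median instead it was 8, but 59.8% of all probes passed then.

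The sagittal series ran from 1 side of the brain to the other, so the paired lateral ventricles meet the midline ones in a single profile. All 9 genes had 3 high places, in fraction 3, in fractions 5 and 6, and in fraction 8, parted by dips in fractions 4 and 7. Ttr had 7.80 in fraction 3, 6.57 in 4, 7.24 and 7.21 in 5 and 6, 7.12 in 7 and 7.97 in 8. Slc4a5 had -1.03, -2.07, -1.21, -1.43, -2.23 and -1.63 in the same fractions. The dip between fractions 3 and 4 was 1.05 log2 at the median (0.82 to 1.41) and that between 8 and 7 was 0.48 (0.13 to 0.85). From the midline side the dips were 0.70 (0.21 to 1.02) between 5 and 4 and 0.33 (0.09 to 0.80) between 6 and 7. The smallest of these were at fraction 7, with 0.09 (Ttr) and 0.14 (Kcnj13) against fraction 6, and 0.13 (Kl) and 0.15 (Clic6) against fraction 8. They are near the spread of repeated spots, an SD of up to 0.085 log2 on 1 array, and each difference involves 2 arrays.

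Among all tested probes 7.28% had fraction 4 below 3 and 5 and also fraction 7 below 6 and 8, a shape chosen after the profiles were seen and not tested. With the array median 8 of the 9 genes kept it. The share of all probes with the shape under that scaling is not given, so this count has nothing to be read against. That scaling moves the median of tested probes by up to 1.40 log2 over the sagittal arrays. Fractions 4 and 5 were on different slides, so the rise between them cannot be told apart from a slide difference, while fractions 6 to 8 were on 1 slide. The shape was met by 4 of 5 ependyma genes and by 16 of 35 other choroid plexus genes described at the end, lists that share Foxj1. The cerebellum list stood at 1.32, 0.87, 0.84, 0.79, 0.72 and 1.04 in fractions 3 to 8. Which ventricles fractions 5 and 6 hold was not measured.

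**Figure D3:**
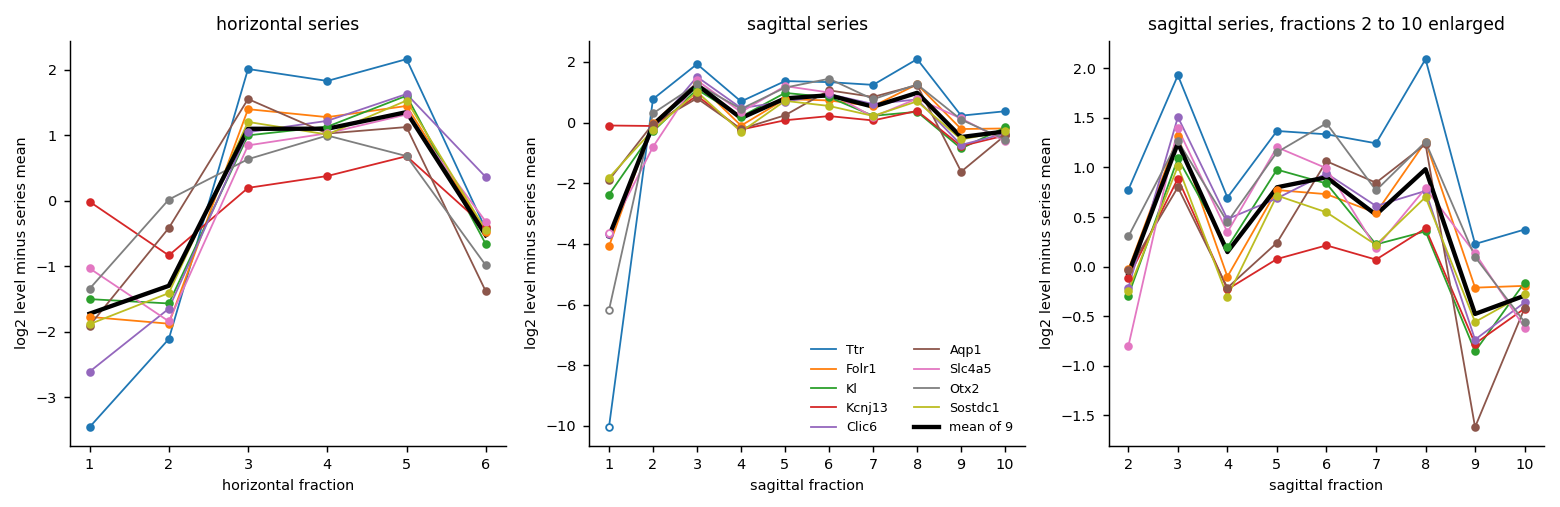
Log2 level relative to the series mean for each of the 9 choroid plexus genes (thin lines, open points where not well above background) and for their mean (thick line) in the 6 horizontal fractions, the 10 sagittal fractions, and sagittal fractions 2 to 10 on a larger scale. The horizontal profiles form a plateau in fractions 3 to 5, and the sagittal ones have maxima in fraction 3, fractions 5 and 6, and fraction 8.

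Fractions at equal distance from the middle of the sagittal series were set side by side. Over the 9 genes the median absolute difference was 0.17 log2 between fractions 5 and 6, 0.32 between 4 and 7, 0.43 between 3 and 8 and 0.55 between 2 and 9. In the outermost pair, fractions 1 and 10, it was 1.88 (0.33 to 3.89) over the 6 genes well above background in both. In fraction 1 Ttr stood at -4.16 and Otx2 at -5.73, neither well above background, against 6.25 and -0.10 in fraction 10. The highest sagittal level of Ttr, in fraction 8, was at least 3616-fold above fraction 1. For Otx2 the highest, in fraction 6, was at least 54.0-fold above it, and for Slc4a5, also not well above background there, fraction 3 was at least 7.10-fold above. Kcnj13 alone showed no drop, with 0.45 in fraction 1 and 0.44 in fraction 2. Fraction 1 had the lowest signal of all arrays, and the cerebellum and hindbrain lists were at -4.31 and -2.06 there. Its part in the low levels was not tested.

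By limma with 3 degrees of freedom 3 of 9 genes had a sagittal trend, Kl (adjusted p 0.0424), Clic6 (0.0483) and Slc4a5 (0.0224), against 14.7% of all probes. Without fraction 1, and within fractions 5 to 10, which share a slide, no gene passed, and 0% of all probes did. None passed without fraction 5 or 6 or with the slide as an added term, against 8.00%, 6.24% and 7.79% of all probes. Without fraction 9 or 10 the count was 6, against 38.8% and 47.1% of all probes. With quantile normalization, 1 degree of freedom fewer or the median over probes it was 1, against 8.13%, 12.7% and 14.7%. With the array median, where 1.04% of all probes passed, Kl (0.0973) and Clic6 (0.074) lost their calls, and with normexp, where 44.2% passed, Kl (0.0858) and Slc4a5 (0.45) did. The lowest adjusted p of any of the 9 genes without fraction 1 was 0.23.

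**Figure D4:**
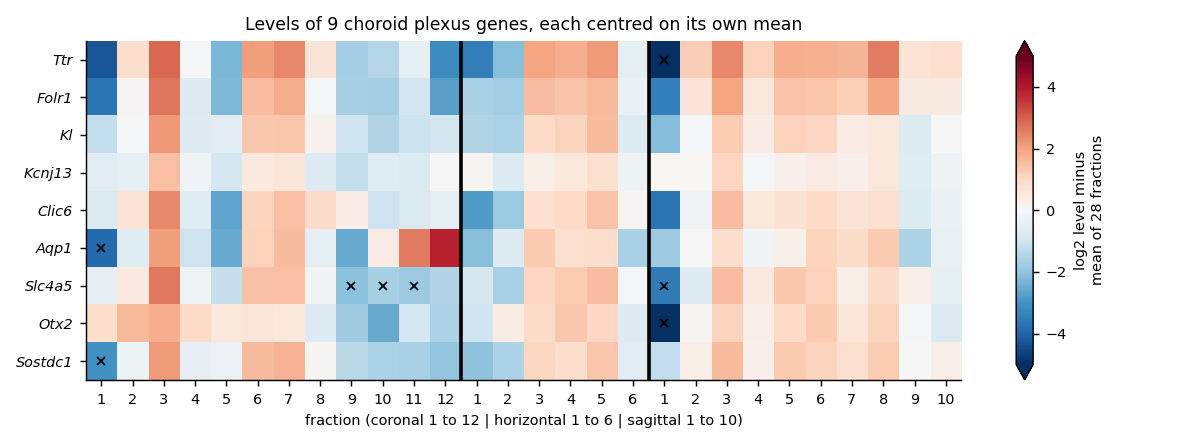
Log2 level of each of the 9 choroid plexus genes minus its own mean over the 28 fractions, with crosses where the probe was not well above background (colours end at 5 log2 on either side). Coronal fraction 3 is raised in all 9 genes and sagittal fraction 1 is low in 8 of them, and Aqp1 stands apart in coronal fractions 11 and 12.

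The brains cut in the 3 planes were compared over all fractions, although each is 1 mouse. Limma called 0 of 9 genes different between planes, with adjusted p from 0.583 to 0.978, and 1.63% of all probes. At an unadjusted p under 0.05 it was also 0 of 9, against 15.2% of probes. Median levels of Ttr were 5.14, 6.09 and 6.89 in the coronal, horizontal and sagittal fractions, with ranges that overlapped widely. Fractions of 1 mouse are the units here, and the error of this test is the spread of levels along each axis. That spread holds the position in the brain, and over the 28 fractions the SD was 0.63 (Kcnj13) to 2.75 log2 (Ttr). A gene with a sharp profile is therefore hard to call, and 0 of 9 does not show that the 3 brains are alike.

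The genes were alike to different degrees. Over the 28 fractions the 36 pairs had a Pearson r between 0.22 and 0.94, with a median of 0.73. Without Aqp1 and Otx2, whose coronal profiles departed from the others, the lowest of 21 pairs was 0.47 and the median 0.83. Leaving out genes for their unlike profiles raises r by the choice itself. Each gene was also set against the mean of the other 8. This gave 0.94 for Kl and Folr1, 0.91 for Ttr and Slc4a5, 0.87 for Clic6, 0.86 for Sostdc1, 0.70 for Otx2, 0.67 for Kcnj13 and 0.51 for Aqp1. The low values of Aqp1 and Kcnj13 depended on which fractions were included. Pairs with Aqp1 had r of -0.17 to 0.56 over the coronal series. Over coronal fractions 1 to 9 they had 0.79 to 0.99, except Otx2 (0.35). Pairs with Kcnj13 had 0.23 to 0.72 over the sagittal series, and 0.67 to 0.93 without fraction 1. Neighbouring fractions, and slides and mice that many fractions share, make these points dependent, and the values are a description. A second probe existed for Folr1, Kcnj13, Slc4a5 and Sostdc1, with r of 0.88, 0.94, 0.80 and 0.98 to the first, and each of the 4 had its caudal maximum in fraction 3 too. The second probes of Folr1 and Slc4a5 were dim, well above background on 13 and 11 arrays.

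Other genes were ranked by their r with the mean of the 9 over the 28 fractions, 1 probe for each of 15551 symbols. The 10 highest were Steap1 (0.98), Kcne2 (0.95), F5 (0.93), Defb11 (0.92), Prr32 (0.91), Cldn2 (0.91), Tex22 (0.88), Nek5 (0.88), Tmem72 (0.87) and Calml4 (0.87). Steap1 belongs to a family of metalloreductases, Kcne2 is an accessory subunit of potassium channels, F5 is coagulation factor V and Cldn2 is a pore-forming claudin of tight junctions. Steap1 had 1.06 in coronal fraction 3, -2.56 in fraction 5 and 0.29 in fraction 7, and Kcne2 1.59, -4.34 and 0.18. An r over 0.85 was found for 11 symbols and for 0.0649% of tested probes, and the median r over all tested probes was -0.08. Prr32 and Cldn2 were well above background on 15 arrays each, Tex22, Nek5 and Tmem72 on 17, and Kcne2 and Defb11 on 21. Their low values therefore have no firm order. Sagittal fraction 1, where the mean of the 9 was -3.76 log2 from its series mean, weighs on r over the 28 fractions. Over the 12 coronal fractions alone, r of the 10 genes was 0.85 (Tmem72) to 0.98 (Steap1).

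A list of 37 further choroid plexus genes, drawn up by role with earlier results of these data known, had 35 tested members. Of these, 25 had 2 coronal peaks (23.2% of all tested probes), 19 had the stricter dip (1.29%), and 7 had r over 0.85 with the mean of the 9 (0.0649%). All 5 tested genes of junctions and cytoskeleton had the dip (Cldn2, Cldn3, Krt8, Krt18 and Calml4), and 6 of 14 in ion and solute transport, 4 of 8 secreted proteins, 3 of 5 receptors and surface enzymes and 1 of 3 transcription factors. Krt18, a keratin of simple epithelia, had 1.53, -1.40 and 0.77 in coronal fractions 3, 5 and 7, and Trpv4, a cation channel that senses swelling, 0.94, -1.15 and 0.06. Enpp2, which encodes autotaxin and is also expressed in oligodendrocytes, went from 7.14 to 5.55 and 6.64. Other genes of the list were nearly flat over these fractions. Atp1b1, a subunit of the sodium pump that neurons also use, had 6.87, 7.10 and 7.15, and Slc13a4, a sulphate carrier also found in meninges, 3.03, 3.04 and 2.94. Igf2 had r of -0.59 with the mean of the 9. Trends by limma were called for 13, 8 and 5 of the 35 in the coronal, horizontal and sagittal series, a share of members to be read against the 33.7%, 15.8% and 14.7% above.

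**Figure D5:**
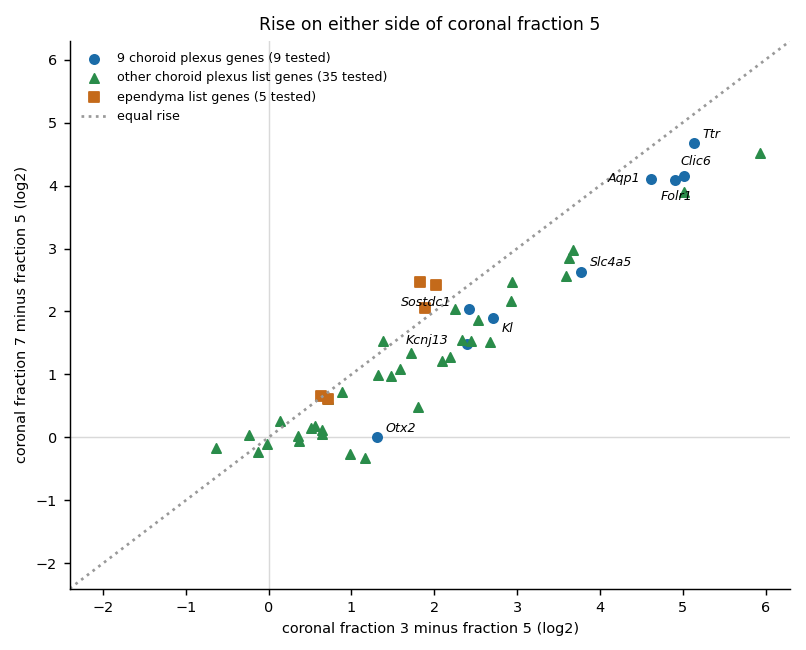
Difference in log2 level of coronal fraction 3 (x axis) and fraction 7 (y axis) from fraction 5, 1 point a gene, for the 9 choroid plexus genes (named), 35 other genes of choroid plexus lists and 5 ependyma genes, with a dotted line where both rises are equal. The 9 genes lie below the line, 31 of the 35 others were higher in fraction 3 than in 7, and 4 of the 5 ependyma genes lie above it.

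Of the 35 other genes 31 were higher in coronal fraction 3 than in 7, against 49.3% of all tested probes, with a median difference of 0.50 log2. Foxj1, a regulator of motile cilia, stands in both this list and that of the ependyma, and is the 1 ependyma gene higher in fraction 3 (0.56 against 0.45). Ccdc153, a gene of motile cilia, had 1.24, -0.58 and 1.89 in fractions 3, 5 and 7, and Tmem212, also of ciliated cells, -0.42, -2.44 and -0.02. In fraction 4 they stood at 0.97 and -0.73. All 5 ependyma genes were lower in fraction 4 than in 3, with a list mean of 0.59 against 0.98, and the 9 choroid plexus genes fell by a median of 2.84 over the same step. The ependyma list was highest in fraction 7 (1.21) and had a median r of 0.70 with the mean of the 9.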

How the data were processed

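Each fraction gave 1 Cy3-labelled sample for a single-colour Agilent array. The deposited intensity of a spot is, per the file headers, the processed signal of Feature Extraction 10.5.1.1, with background subtracted. In a table of log2 values that the authors made for 44721 probes, 99.5% of values equalled the scaling used here within 0.001 log2, up to an offset per array of 0.0011 to 0.0076. The aligner and genome build do not enter, and the probes' intervals are of build mm9 and were not used.

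Spots flagged as outliers were left out (108 to 176 an array), the spots of a probe averaged, log2 taken and the 75th percentile of the array subtracted. A probe was tested if at least 1 fraction of every plane had it well above background, which 32364 did, without 130 incomplete ones. Names came from a RefSeq table of GRCm38.p6 (27235 of 55681 probes). Where a probe was not well above background, a fold is a bound against the lowest such signal of its array.

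Trends were tested by limma 3.58.1 in R 4.3.3 (natural splines with 3, 2 and 3 degrees of freedom in the coronal, horizontal and sagittal series), and planes by limma over all fractions, with Benjamini-Hochberg adjustment over all tested probes and a threshold of 0.05. For trends, error comes from the scatter around the curve alone, so p-values cover 1 brain and sharp anatomy counts as error. For planes it is the spread of fractions around the mean of their plane, which counts all anatomy along the axis as error. Scripts were tested on simulated data. Other steps used Python 3.11.15 with pandas 2.3.3 and numpy 2.4.6, and figures matplotlib 3.10.9.

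The genes, lists and tests were chosen with earlier results of these data known. Named are the 9 genes, the 10 symbols most like their mean, and list genes where a result turns on them. Lists of ependyma, meningeal fibroblasts, endothelium, blood, pineal, retinal pigment epithelium and brain regions were read for position, with Sspo for the subcommissural organ (highest in coronal fraction 6, 1.32 log2). Alternatives were the array median, quantile normalization, normexp (offset 50, median foreground in place of the planned mean), the authors' values, no filter, other splines, the slide, the median over probes, and leaving out each fraction.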

Additional observations from a re-analysis of the deposited data

Results flagged for a closer look

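In the horizontal and sagittal series each of the 9 genes and their mean was asked whether its highest or lowest fraction lay far from the rest, by the gap to the nearest fraction over the whole range, against Dixon's 95% value (0.625 for 6 fractions, 0.466 for 10). The coronal series, with 12 fractions, is too long for this rule. Of 20 sets 6 passed. A chance rate of about 1 in 20 holds for independent draws from 1 normal distribution. Fractions are ordered places in 1 brain, where an end can differ by anatomy, so that rate does not apply here. All 6 concern sagittal fraction 1, which was low, so they come from 1 array, and 1 of them is the mean of the 9 genes, so they are not separate findings. The gap over range was 0.846 for Ttr (-4.16 log2, against 6.10 in fraction 9, the nearest), 0.718 for Folr1 (-2.47 against 1.40 in fraction 9), 0.568 for Clic6 (-2.91 against 0.04 in fraction 9), 0.563 for Slc4a5 (-6.05 against -3.22 in fraction 2), 0.737 for Otx2 (-5.73 against -0.10 in fraction 10) and 0.656 for the mean of the 9 genes (-3.76 against -0.48 in fraction 9). Ttr, Slc4a5 and Otx2 were not well above background there, so their true gap is not measured. With such levels held at the floor of that array (-3.85 log2), a choice made after the data were seen, the gap over range was 0.842 for Ttr, 0.652 for Otx2 and 0.224 for Slc4a5, which then does not pass. For the mean, which includes these 3 genes, it was 0.619.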

How the results depend on the processing

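The caudal maximum of the mean of the 9 genes stayed in coronal fraction 3 under the 5 alternatives run, and the rostral one in fraction 7 except with the array median (6). The rostral minus the caudal maximum was -0.80 log2 and lay between -0.86 and -0.77. Counts of 2 coronal peaks were 9 under these alternatives (5.52% to 29.4% of all probes) and with a peak height of 0.5 log2 (57.6%), and 7 with 2 log2 (4.64%). With the array median the median of tested probes spans 0.45, 0.94 and 1.40 log2 over the coronal, horizontal and sagittal arrays (0.08, 0.12 and 0.12 with the 75th percentile). Otx2 in coronal fraction 7 minus 5 changed sign with the array median (-0.15), quantile normalization (-0.0016) and normexp (-0.013) and was not tested in any setting. Coronal trends were 1 of 9 as reported, 2 with normexp or 1 degree of freedom fewer (39.3% and 38.5% of all probes), 8 with 6 degrees of freedom (36.7%), and 1 to 4 leaving out 1 fraction each (24.5% to 34.4%). Otx2 kept its coronal call in every setting (adjusted p 0.000359 to 0.0286). It alone was called with the slide as an added term (0.745% of all probes) and on 1 slide only (12.9%). Horizontal trends were 4 as reported, 8 with the array median (59.8%), 0 with 1 degree of freedom fewer (0.00309%), 1 with 1 more (4.95%), and 0 to 5 leaving out 1 fraction each (0% to 17.8%). Sagittal trends were 3 as reported, 1 with quantile normalization, 1 degree of freedom fewer or the median over probes (8.13%, 12.7% and 14.7%), 5 with no filter (34.5%), 2 with the array median (1.04%), 4 with normexp (44.2%), 0 with the slide as an added term (7.79%) or on 1 slide only (0%), and 0 to 6 leaving out 1 fraction each (0% to 47.1%). With the fraction number as a replicate block 0 of 9 genes and 2.69% of all probes differed between planes, and 0 of 9 in the other settings too (0.034% to 4.19%). Equal numbers are positions on different axes in different mice, so they pair nothing. The causes of these changes were not tested. Dim signal limits Slc4a5 most, well above background on 24 of 28 arrays.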
